A study of Drosophila melanogaster with 2 samples.

Results

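Far intronic binding of Hr78 comprised the summits of the reproducible peak list that lay inside a gene span, in no exon of any gene, and more than 5000 bp from the nearest annotated transcript start. Pseudogenes and transposable elements were left out of the annotation. The rule used position only, and 783 of 5723 optimal peaks met it (13.7%, 95% exact binomial interval 12.8 to 14.6). They lay in 706 listed regions and 361 host genes, of which 355 were protein-coding. The samples were 2 biological replicates, numbered 1 and 3, of whole Drosophila melanogaster embryos of mixed sex aged 8 to 16 h. They carried a stable transgene for Hr78 tagged C-terminally with eGFP, and an anti-GFP antibody was used to pull down the chromatin. Both replicates came from 1 donor line and formed 1 group, so no second genotype, stage or condition was compared. The tagged protein was expressed beside any endogenous Hr78, whose state in the line the labels do not give. A whole embryo mixes all tissues, so a weak site used in many cells and a strong site used in few cannot be told apart.

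Hr78 is an orphan nuclear receptor of the family that holds the vertebrate testicular receptors. Nuclear receptors of this kind bind the hexamer AGGTCA and close variants of it, as direct repeats or as single sites. In Drosophila, pulses of the steroid ecdysone act through the receptor EcR and a hierarchy of further nuclear receptors and other transcription factors, and Hr78 has been linked to that hierarchy and to growth of the tracheal tubes. Introns of fly developmental genes are known to hold enhancers, which can act over long distances on the start site of the gene that holds them or of a neighbour.

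The sequences under the summits come first, because the rule used none of them. The hexamer AGGTCA, on either strand and within 50 bp of the summit, was present at 87 of 783 far intronic summits, against 9.86% of the other optimal peaks. The 12 members of highest signal with this hexamer are given below, leaving out 1 arm whose sequences are not shown. Sequences are from genome release 6, the build of the peak coordinates (dm6), each read 5′ to 3′ on the strand that carries the hexamer, which is in capitals.
neur, chr3R:9027194-9027223, plus strand: gattgaggtcacAGGTCAcgtgctgccccg
sdk, chrX:702659-702688, minus strand: ggacgaagtcaaAGGTCAtgatgctaattg
osp, chr2L:14673677-14673706, plus strand: atgtctgtggaaAGGTCAtttaatagacta
Hr39, chr2L:21244227-21244256, minus strand: acatttcgggcaAGGTCAtcgcgagataaa
RYa-R, chr3R:27056336-27056365, minus strand: ttctctacagaaAGGTCAtcaattttactt
sick, chr2L:19951675-19951704, plus strand: aaatcatcggaaAGGTCAaagtgcacccgc
sba, chr3R:23909718-23909747, minus strand: acaaacttgagaAGGTCAgcgccgaacgat
alpha-Man-Ia, chrX:10319468-10319497, plus strand: ggaaaatcgaaaAGGTCAgcgcttgggttc
mbc, chr3R:23790854-23790883, minus strand: gaaatatgaaaaAGGTCAgctccgtcaatt
scrib, chr3R:26552370-26552399, plus strand: tgtgtgtgtgaaAGGTCAacgaattgtttg
ab, chr2L:11224588-11224617, minus strand: ctgggcggcaggAGGTCAaaggttaatcgc
CG46467, chr3R:9918692-9918721, plus strand: tgaccgggtcaaAGGTCAacgatacattta
The centres of these hexamers lay 0.5 to 38.5 bp from the summit, with a median of 11 bp. The hosts include neur, a ubiquitin ligase that acts on Notch ligands, Hr39, another nuclear receptor, mbc, an activator of Rac in myoblast fusion, and scrib, a basolateral polarity protein. In 8 of the 12 the hexamer is preceded by a pair of adenines. Over all AGGTCA copies within 50 bp of far intronic summits, 26 of 91 were preceded by this pair (28.6%, 95% exact interval 19.6 to 39.0). The share was 13.9% of 7761 copies in all far intronic sequence, and 24.1% of 518 copies at the other optimal summits. This context was noticed in the printed sequences, so these shares are descriptions.

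Pairs of hexamers in direct repeat with 1 base between them, called DR1, formed a second set. The hexamers counted were AGGTCA, its variant GGGTCA, the variant AGTTCA and lastly the variant GGTTCA. A DR1 of these 4 was present at 14 far intronic summits, against 1.3% of the other optimal peaks. The 8 of highest signal outside that arm follow, with both hexamers in capitals and the spacer in lower case between them.
neur, chr3R:9027187-9027223, plus strand: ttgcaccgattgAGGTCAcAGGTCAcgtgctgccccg
baz, chrX:17173177-17173213, minus strand: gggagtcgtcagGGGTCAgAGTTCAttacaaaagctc
Pli, chr3R:23884262-23884298, minus strand: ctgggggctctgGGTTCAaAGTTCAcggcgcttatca
CG42238, chr2L:21039811-21039847, plus strand: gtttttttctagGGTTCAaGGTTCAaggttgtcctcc
CG46467, chr3R:9918685-9918721, plus strand: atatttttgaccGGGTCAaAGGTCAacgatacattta
mtgo, chr2L:16649032-16649068, minus strand: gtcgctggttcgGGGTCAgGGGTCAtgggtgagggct
beat-IIIc, chr2L:17221633-17221669, minus strand: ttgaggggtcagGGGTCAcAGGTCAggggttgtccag
Fas3, chr2L:18365064-18365100, plus strand: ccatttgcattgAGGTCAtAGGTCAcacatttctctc
The hosts include baz, the Par-3 protein of apical polarity, Pli, a ubiquitin ligase of the Pellino family, and the adhesion proteins beat-IIIc and Fas3. Among the 15 DR1 sites of the 14 summits, AGGTCA was the downstream hexamer in 6, and GGGTCA the upstream hexamer in 6.

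The last set joins AGGTCA to the palindrome CACGTG, a site of bHLH and bHLH-ZIP factors, in the fused letters AGGTCACGTG, in capitals here. It was present at 2 of 783 far intronic summits, 0 of their flanks and 0 of the 4940 other optimal summits. Of 276109 windows of the same width tiled over far intronic sequence, 8 held it. The other summits did hold related sites. CACGTG fused to any of the hexamers counted for DR1 was at 3 far intronic and 7 other optimal summits. AGGTCA and CACGTG lay in the same window, fused or apart, at 5 far intronic and 7 other optimal summits. These counts were not tested. The 2 far intronic sites with the fused AGGTCA follow.
neur, chr3R:9027194-9027227, plus strand: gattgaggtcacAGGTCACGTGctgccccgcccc
Eip75B, chr3L:18020181-18020214, plus strand: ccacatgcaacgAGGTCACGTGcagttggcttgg
The neur site thus holds DR1 and CACGTG in 1 overlapping run. The peak signal is the authors' value for each peak against a control, and its scale is not given in the sources used here. At neur it was 2076 in the optimal list, 1129 in replicate 1 and 963 in replicate 3. At Eip75B, which encodes the heme-binding receptor E75, it was 559 in the optimal list, 294 in replicate 1 and 262 in replicate 3. These 2 summits were singled out after their values were seen.

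Each summit window of 101 bp was next set against a flanking window of equal width centred 500 bp toward higher coordinates. AGGTCA was present at 87 summits (11.1%, 9.0 to 13.5) and 24 flanks (3.07%), with an adjusted p of 2.21e-08 (exact McNemar test, two-sided, Benjamini-Hochberg over 23 consensus motifs). The tiled windows held it in 2.55%. Any of the 4 hexamers was present at 257 summits (32.8%) and 85 flanks (10.9%), against 12.02% of tiled windows and 29.9% of the other optimal peaks (exact McNemar p = 2.11e-25). Each hexamer alone was more frequent at the summits. GGGTCA was at 77 summits and 15 flanks, AGTTCA at 88 and 35, and GGTTCA at 43 and 18, with a largest adjusted p of 0.00155 over the 4 forms (exact McNemar test). Peaks of one listed region are not independent, so these p-values are on the small side.

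DR1 was at 14 summits (1.79%, 0.981 to 2.98) and 0 flanks, against 0.0529% of tiled windows (adjusted p = 0.00110 over 9 spacings, exact McNemar test). A count of 0 among 783 flanks allows a share of up to 0.470% (upper 95% exact bound). The other 8 spacings, from DR0 to DR8, occurred at 0 to 3 summits each, too few for any to pass the threshold. Even 3 summits against 0 flanks gave p = 0.25 (exact McNemar test, unadjusted), so these calls cannot set DR1 apart from them. DR2 and DR4, at 3 summits each (0.383%), were in 0.0203% and 0.0333% of tiled windows. At the other optimal peaks every spacing but DR5 and DR7 passed (exact McNemar test, largest adjusted p among those passing 0.0496). The DR1 call was lost in smaller sets and in a narrower window. It had an adjusted p of 0.0703 in the higher-signal part of the list, 0.281 beyond 10000 bp and 0.141 with windows of 25 bp on each side, all with 0 flanks.

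**Figure D1:**
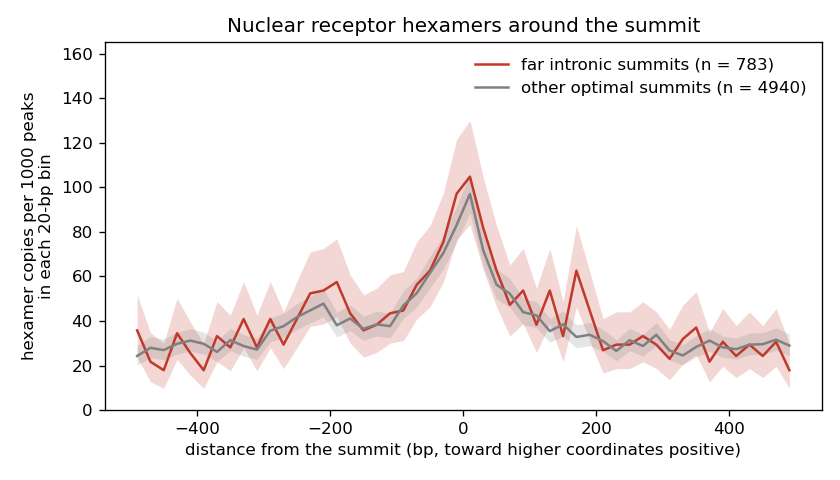
Copies of any of the 4 hexamers per 1000 peaks in bins of 20 bp (vertical axis) by distance from the summit in bp (horizontal axis), for the 783 far intronic summits and the 4940 other optimal summits; bands are exact 95% Poisson intervals. The far intronic profile peaks at 105 copies per 1000 in the bin from 0 to 20 bp, and the grey profile runs along it.

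Copies were densest at the summit itself. The bin from 0 to 20 bp held 82 copies of any hexamer, or 105 per 1000 peaks (83.3 to 130), and the bin from 100 to 120 bp held 30, or 38.3 per 1000 (25.9 to 54.7). AGGTCA alone gave 29 copies in the bin from 0 to 20 bp, or 37.0 per 1000 peaks.

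AGGTCA was about as frequent here as at nearer introns. It lay at 10.7% of the 1807 intronic summits 500 to 5000 bp from a start site, a difference of 0.38 percentage points (−2.25 to 3.00; adjusted p = 0.783, Fisher's exact test, two-sided). Intergenic summits had 9.33% (difference 1.78 points, −1.25 to 4.81; adjusted p = 0.319, Fisher's exact test). The 2144 summits within 500 bp of a start site had 8.12%. That difference of 3.00 points (0.51 to 5.48) had an adjusted p of 0.0438 by Fisher's exact test over the 7 comparisons of the design, and 0.0563 when 2 further comparisons with intergenic summits were counted. It was also lost in either replicate alone, with an adjusted p of 0.0806 from replicate 3 and 0.129 from replicate 1, so it did not hold up. The 239 exonic summits had 20.5%, given without a test.

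CACGTG and the CTCF core were also more frequent at far intronic summits than at these flanks, both less firmly. CACGTG was at 19 summits (2.43%) and 3 flanks (0.383%), with an adjusted p of 0.00984 (exact McNemar test), against 1.46% of the other optimal peaks. The flank count is itself below the 1.07% of tiled windows, and with the flank toward lower coordinates, which held 8, the adjusted p was 0.300. The CTCF core was read as AGAGGGC or its variant AGATGGC, or else the variant AGGGGGC or its partner AGGTGGC. It was at 53 summits (6.77%) and 27 flanks (3.45%), with an adjusted p of 0.0332 (exact McNemar test), against 4.15% of the other optimal peaks and 3.51% of tiled windows. With the other flank, which held 33, its adjusted p was 0.270. From replicate 3 alone the adjusted p was 0.232 for both sequences, and from replicate 1 alone it was 0.476 for CACGTG and 0.671 for the CTCF core.

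The GATA site, read as AGATAA or the variant AGATAG, or else the variant TGATAA or its partner TGATAG, was at 163 far intronic summits (20.8%) and 168 flanks (21.5%), with an adjusted p of 1 (exact McNemar test). At the other optimal peaks it was at 24.8% of summits and 19.0% of flanks. The remaining 19 consensus sequences did not pass the threshold at far intronic summits (exact McNemar test, smallest adjusted p = 0.276). Searched on both strands, they were the extended monomer site TCAAGGTCA, which contains AGGTCA, BEAF (CGATA), DREF (TATCGATA, which contains the BEAF letters), GAGA factor (GAGAG), the repeat CACACACA, the repeat TATATATA and the run AAAAAAAA. They were further Zelda (CAGGTA), AP-1 (TGANTCA), homeodomain proteins (TAATTA), Mef2 by its name, another E-box (CAGCTG), Grainy head (AACCGGTT), ETS (CCGGAA), POU (ATGCAAAT), forkhead (TGTTTAC), Runt (TGTGGTT), Tramtrack (AGGACCT) and the sterol regulatory element by its name. The tiled windows held these in 0.0402% (sterol regulatory element) to 11.5% (GAGAG), and the GATA site in 16.9%.

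Hexamers were more frequent under stronger far intronic peaks. AGGTCA was at 31 of the 196 summits of highest signal (15.8%) and 16 of the 195 of lowest signal (8.21%), with p = 0.0287 (Fisher's exact test, two-sided). Any of the 4 hexamers was at 43.4% and 28.7% of the same summits (p = 0.00314, Fisher's exact test). These 2 tests were added with earlier results in view. DR1 was at 6 of the 196 and 3 of the 195.

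Some far intronic summits came in close pairs. Of the 783, 100 (12.8%) were the higher-coordinate summit of a pair 150 to 250 bp apart, against 15.1% of the other optimal peaks. The lower-coordinate partner was itself far intronic for 95 and in another class for 5. In the 95 pairs the median gap was 203 bp, and in 94 of them the lower-coordinate partner was the stronger. The median signal was 856 for the lower-coordinate summits and 382 for the higher-coordinate ones. AGGTCA lay within 50 bp of 16 of the former and 6 of the latter. This ordering follows genome coordinates and not the strand of the host, and what produces it was not tested. Leaving out all 100 higher-coordinate summits left 683 members, of which 11.9% had AGGTCA.

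Positions within the genes are considered next. Distances to the nearest start site ran from 5005 to 58772 bp with a median of 8825 bp (quartiles 6600 and 13160). The distance exceeded 10000 bp for 326 summits and 20000 bp for 68. The nearest start site belonged to the host gene itself for 488 summits (62.3%) and to another gene for the rest. At the limit of the rule, the 3 summits just inside were in mam, a Notch coactivator (5005 bp), dnt, a Ryk-family receptor (5015 bp) and Tis11, an RNA-binding protein (5017 bp). The 3 intronic summits just outside were in vib (4993 bp), Ork1 (4991 bp) and ush (4986 bp).

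Binding thinned out with distance. Far intronic sequence comprised 28.4 Mb (21.2% of the 6 arms) and held 27.6 summits per Mb (25.7 to 29.6, exact Poisson interval). Introns nearer to a start site held 74.0 per Mb, windows within 500 bp of a start site 120, intergenic sequence 20.4 and exons 9.06. Within introns the density was 97.3 per Mb from 500 to 1000 bp and 59.3 from 2000 to 5000 bp. It was 41.4 from 5000 to 10000 bp, 30.3 from 10000 to 20000 bp, 15.8 from 20000 to 40000 bp and 3.00 from 40000 to 80000 bp, where 5 summits lay. Over whole arms the intervals of neighbouring bins beyond 2000 bp did not overlap. Part of the fall lies in arm ends that hold no optimal peak at all. Within the stretch of each arm between its first and last optimal summit, the far intronic density was 36.0 per Mb over 21.7 Mb, and the last 4 bins held 44.1, 33.2, 20.9 and 9.83 per Mb. There the intervals of the last pair of bins, 16.1 to 26.8 and 3.19 to 22.9, did overlap.

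**Figure D2:**
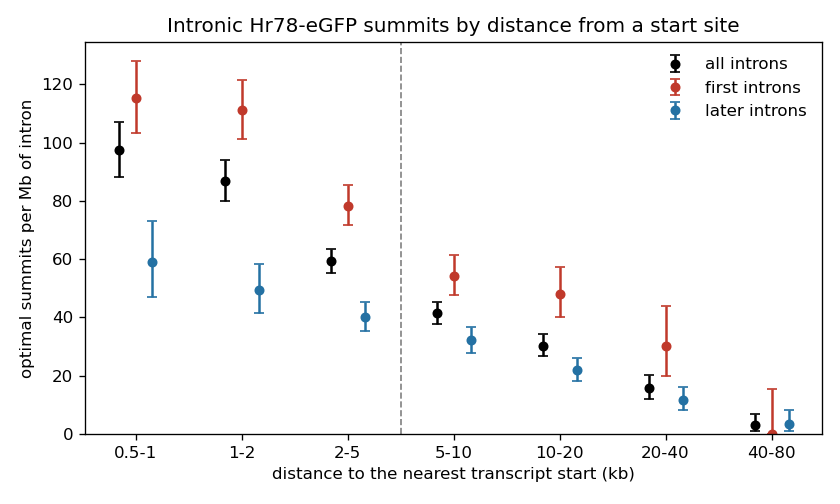
Optimal summits per Mb of intron (vertical axis) by distance from the nearest transcript start in kb (horizontal axis), for all introns, for the first intron of any transcript of the host and for later introns; bars are exact 95% Poisson intervals and the dashed line marks the 5000 bp limit. Density falls from 97.3 to 3.00 per Mb over all introns, and first introns sit above later ones in every bin up to 40 kb.

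Peak strength fell less than density. The median signal of intronic summits was 474 from 500 to 1000 bp, 430 from 1000 to 2000 bp and 424 from 2000 to 5000 bp. It was 418 from 5000 to 10000 bp, 402 from 10000 to 20000 bp, 434 from 20000 to 40000 bp and 423 in the 5 most distant summits. These are medians of peaks in the thresholded list, which held no signal below 271.7. AGGTCA lay at 10.7%, 11.2% and 12.7% of the summits in the 3 bins from 5000 to 40000 bp and at 1 of 5 in the last.

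First introns held more than their share. Of the 783 summits, 409 (52.2%) were in the first intron of at least 1 transcript of the host, while such introns made up 30.8% of the far intronic sequence. The densities were 46.8 per Mb (42.4 to 51.5) in first introns and 19.0 (17.1 to 21.1) in later ones. At matched distances the order was the same, with 54.3 against 32.2 per Mb from 5000 to 10000 bp, 48.2 against 21.9 from 10000 to 20000 bp, and 30.1 against 11.6 from 20000 to 40000 bp. The intervals of first and later introns did not overlap in these 3 bins. Within the stretches spanned by optimal summits the contrast was smaller. First introns there held 51.6 summits per Mb over 7.93 Mb, and later ones 27.1 over 13.8 Mb.

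By arm the density was 35.8 per Mb on 2L, 29.2 on 3L, 27.1 on X, 26.1 on 3R and 23.4 on 2R. Chromosome 4 held 0 far intronic summits in 0.266 Mb, which allows up to 13.9 per Mb (exact Poisson bound). The order of 3L, X and 3R is within their intervals. The arm densities are over whole arms, with the ends that hold no optimal peak. On chromosome 4 the optimal summits of any class lay between 486818 and 497924, on an arm of 1348131 bp. On 2R the first lay at 5681995, on 3R at 4181560, and on 3L the last at 22890183 of 28110227 bp.

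The 5 summits farthest from a start site were in 4 genes. CG43759 held the farthest, at 58772 bp, with a signal of 423 in the optimal list, 236 in replicate 1 and 184 in replicate 3. The gene hth, which encodes a cofactor of Hox proteins, held 1 at 47627 bp with signals of 366, 180 and 169 in the same order. A close pair in kek5, an LRR transmembrane protein, lay at 46795 and 46562 bp, and mamo held 1 at 42355 bp. The kek5 summit at 46562 bp was strong, with signals of 1825, 1002 and 817.

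The strongest far intronic peaks are given by host gene, with the signal in the optimal list, in replicate 1 and in replicate 3. Replicate values are those of the highest replicate peak that overlaps, so the summits of a close pair share them. CG45088 on 2R led with 3414, 1736 and 1744, and was peak 45 of the whole optimal list. The scaffold protein of integrin signalling p130CAS had 2550, 1463 and 1131. The glypican dally, a co-receptor for Wnt, Hedgehog and BMP ligands, had 2395, 1345 and 1043. These 3 were high in both replicates.
The founder-cell adhesion protein kirre had 2256, 1368 and 895. The microtubule-associated protein Jupiter had 2076, 1090 and 989. The wing vein gene px had 2066, 1090 and 981 and a second summit at 1678. In the replicate lists of 30000 peaks, kirre ranked 85 and 162, Jupiter 153 and 132, and px 155 and 135.
The triglyceride lipase bmm had 1882, 827 and 1054, and the kinase Drak had 1829, 1091 and 749. By rank, bmm was 317 in replicate 1 and 109 in replicate 3, and Drak was 152 and 238. The other hosts among the 15 strongest were neur, Samuel with 2 summits, kek5, CG6959 and a second summit of CG45088. Of the 15, 7 lay in a first intron, 7 had one of the 4 hexamers within 50 bp, and 1 had AGGTCA, at neur.

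Far intronic peaks were weaker than those at start sites. Their signals ran from 271.8 to 3414 with a median of 413, and 349 of 783 (44.6%) lay above the median of the optimal list, against 50.9% of the other optimal peaks. The share was 54.2% at start sites, a difference of −9.63 points (−13.7 to −5.56; adjusted p = 2.97e-05, Fisher's exact test). It was 48.9% at nearer introns, a difference of −4.35 points (−8.52 to −0.17) that missed the threshold (adjusted p = 0.0772, Fisher's exact test). That comparison passed it in 4 of 8 alternatives. Intergenic peaks had 44.3%, a difference of 0.31 points (−4.67 to 5.28; adjusted p = 0.918 over 9 comparisons, Fisher's exact test), a comparison added later.

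The optimal list was derived with an irreproducible discovery rate threshold, so agreement of the replicates at its peaks was in part built in. For 631 members (80.6%) a peak overlapped in the top 5723 of replicate 1 and in the top 5723 of replicate 3, against 83.4% of the other optimal peaks. Start sites had 84.3%, a difference of −3.69 points (−6.86 to −0.52; adjusted p = 0.0438, Fisher's exact test, or 0.0563 over 9 comparisons). With overlap of 50% of each region required, the shares were 66.2% and 66.4% (adjusted p = 0.930, Fisher's exact test), so that difference rests on the rule of overlap. Intergenic peaks had 80.3%, a difference of 0.32 points (−3.65 to 4.29; adjusted p = 0.918 over 9 comparisons, Fisher's exact test). In the full replicate lists, 778 members (99.4%) were overlapped in both, close to the 99.1% of all optimal peaks. The summits of the replicates lay a median of 27 bp apart over 764 members.

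**Figure D3:**
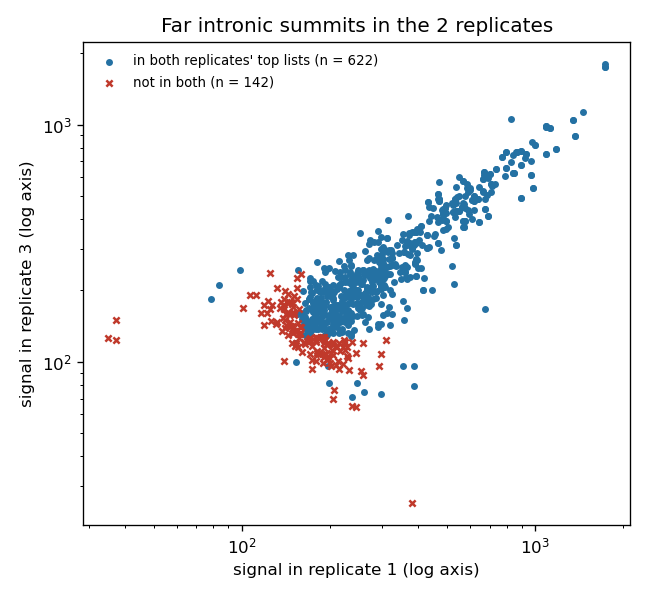
Signal of each far intronic summit in replicate 1 (horizontal axis) and replicate 3 (vertical axis), both on log axes and in the authors' units, for the 764 members with a replicate peak over the summit in both. Summits inside the same replicate peak share its value. Blue points are in the 5723 highest peaks of each replicate (622) and red crosses are not (142); the crosses lie at the low end of 1 or both axes.

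Across these 764 members the replicate signals had a Spearman correlation of 0.79, which describes sites of the thresholded list within 1 experiment. Summits inside the same replicate peak share its value, so the 764 points are not all separate measurements. The median signal was 252 in replicate 1 and 202 in replicate 3, on scales that may differ. The rank within the replicate list differed by more than 2 times for 87 members.

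The members were spread unevenly over their 361 hosts. A total of 192 hosts held 1 far intronic summit, and 60 hosts held 4 or more, together 332 summits (42.4%).

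**Figure D4:**
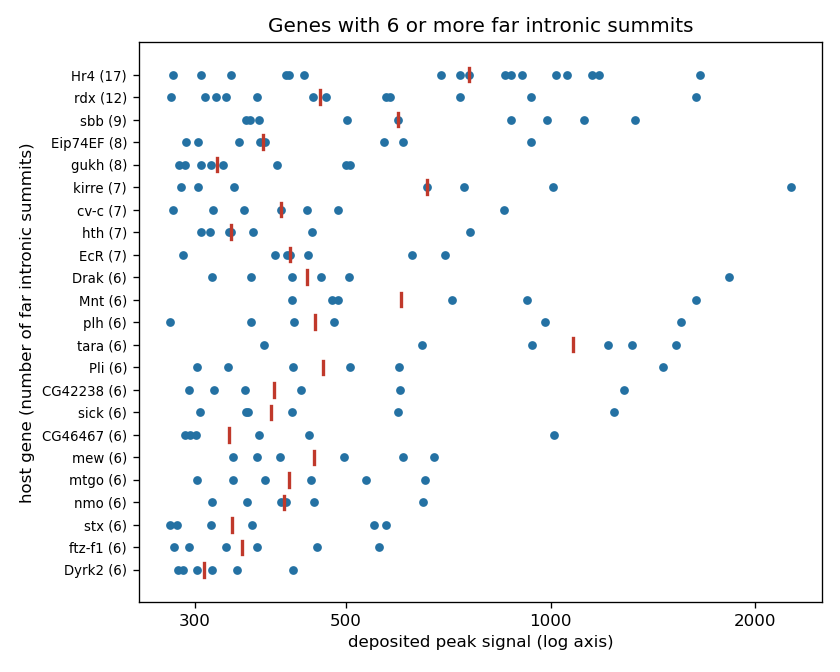
Deposited peak signal (horizontal log axis) of every far intronic summit in the 23 genes with 6 or more (vertical axis, number in parentheses); red bars are the medians. Hr4 has 17 summits, most of them above the overall median of 413, and Dyrk2 has 6 that reach at most 418.

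Hr4 held the most, with 17 summits in 12 regions. It encodes an ecdysone-induced nuclear receptor. Signals in the optimal list ran from 279 to 1660 with a median of 759, in replicate 1 from 130 to 898 with a median of 484, and in replicate 3 from 88.4 to 771 with a median of 420. The nearest start site was its own for all 17, and 15 were in the top lists of both replicates. One intronic stretch of 8582 bp held 8 of them. Only 1 of the 17 had AGGTCA and 3 had any of the 4 hexamers. The strongest, with a signal of 1660, lay 20087 bp from a start site.

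The gene rdx, which encodes a Cul3 adaptor that acts on the Hedgehog effector Ci, held 12 summits. Signals ran from 277 to 1637 with a median of 458, and replicate medians were 319 and 201 in replicates 1 and 3. A stretch of 40282 bp held 11 of them. The corepressor gene sbb held 9, all within one stretch of 43501 bp and all in the top lists of both replicates, with signals of 356 to 1330 and a median of 596. Thus 2 of the 3 leading hosts were not on the receptor list.

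The ETS-domain gene Eip74EF, an early ecdysone response gene, held 8 summits with signals of 291 to 936 and a median of 377. The Scrib-binding protein gukh also held 8, all of modest signal, from 284 to 507. The genes kirre, cv-c, hth and EcR held 7 each. Medians were 659 in kirre, 402 in cv-c, 339 in hth and 414 in EcR. Drak, with 6 in a stretch of 53422 bp, had signals of 318 to 1829.

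EcR encodes the ecdysone receptor. Its 7 summits were all in first introns within a stretch of 27810 bp, 9739 to 17038 bp from the nearest start site. In order of coordinate the signals were 409, 700, 440, 414, 626, 393 and 288 in the optimal list. Of these 7, 6 were in the top lists of both replicates and 2 had AGGTCA. The replicate values of EcR ran from 191 to 381 in replicate 1 and from 105 to 333 in replicate 3.

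The remaining receptor hosts had fewer. The competence factor ftz-f1 held 6 summits, with signals of 279 to 560 and a median of 351, of which 4 were in both top lists. Eip75B held 4, at 333, 603, 559 and 559, all in both top lists. Hr39, a relative of ftz-f1, held 3, at 1279, 856 and 352, and Hr38, a relative of the vertebrate Nurr1 group, held 1 at 319. The strongest of Hr39 carries the AGGTCA shown above and lay 5892 bp from a start site. Of the 10 receptor genes with far intronic sequence, Eip78C, svp, dsf and knrl held none.

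Gene lists give these hosts a context. Of the 1736 protein-coding genes with far intronic sequence, 355 (20.4%) held at least 1 member, at 28.0 summits per Mb. For nuclear receptors it was 6 of 10 genes and 38 summits, or 188 per Mb (133 to 259), and 130 per Mb without Hr4. Their median signal was 506, against 413 for all members, and 6 of the 38 had AGGTCA. The list was chosen with earlier results known, so these are descriptions. The densities of all lists and of all protein-coding genes are over whole arms. For all far intronic sequence the whole-arm density was 27.6 per Mb, against 36.0 within the stretches spanned by optimal summits.

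**Figure D5:**
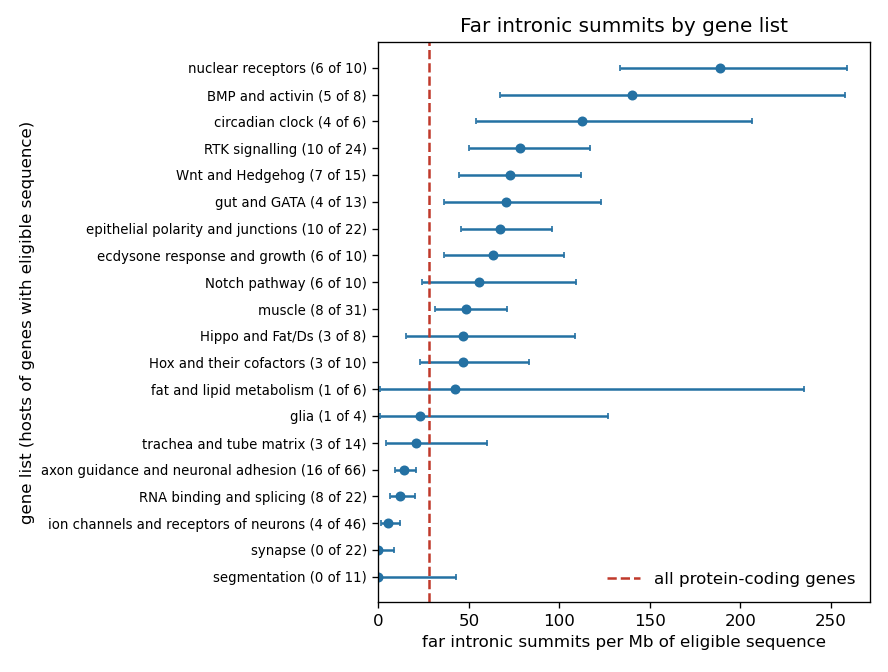
Far intronic summits per Mb of eligible sequence (horizontal axis) for 20 gene lists (vertical axis, hosts of genes with such sequence in parentheses); bars are exact 95% Poisson intervals and the dashed line is the 28.0 per Mb of all protein-coding genes. Nuclear receptors are at 188 per Mb and synapse genes at 0.

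Among ecdysone response and growth genes, 6 of 10 were hosts, with 16 summits (63.3 per Mb), or 37.3 per Mb without Eip74EF. The coactivator tai held 3, mld 2, the juvenile hormone receptor gce 1, the zinc-finger gene br 1 and Eip63E 1, none above 551 in signal.

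Components of signalling pathways were hosts in several lists. In the BMP and activin list 5 of 8 genes held 10 summits (140 per Mb). These were cv-2, a BMP-binding protein, with 4, the inhibitory Smad Dad with 3, and the antagonist sog, the ligand dpp and the zinc-finger protein shn with 1 each. Their highest signals were 810, 941, 887, 669 and 335. A ligand, extracellular modulators and an intracellular inhibitor of the pathway were thus among the hosts.

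In the Wnt and Hedgehog list 7 of 15 genes held 20 summits (72.5 per Mb). The receptors fz and fz2 held 5 and 4, the inhibitor nkd 4 and dally 3. In the receptor tyrosine kinase list 10 of 24 held 24 summits (78.4 per Mb), led by S with 5, the ligand Pvf3 with 4, the kinase Raf with 4 and the repressor cic with 3. In the Notch list 6 of 10 held 8 summits, with neur 2, the receptor N 2, and numb, mam, kuz and the ligand Delta 1 each. The Delta summit was weak, with a signal of 284. For Hippo and Fat/Ds it was 3 of 8, with kibra 3, vg 1 and app 1.

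Among genes of cell polarity and junctions, 10 of 22 held 30 summits (67.3 per Mb), with fz, pyd and ed 5 each and baz 3. The baz summits had signals of 1613, 308 and 281, so that 1 strong site stood beside 2 weak ones.

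The clock list had 4 of 6 hosts, with nmo 6, Pdp1 2, and cwo and sgg 1 each. Its density was 112 per Mb (53.8 to 206), above the background, and no lower without nmo.

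Lists for differentiated tissues varied. Muscle genes had 8 of 31 hosts and 25 summits (48.2 per Mb), led by kirre with 7, the integrin mew with 6, mbc with 3 and the mesoderm determinant twi with 2. The gut and GATA list had 4 of 13, with hth 7, the cofactor ush 3, grn 1 and lab 1. The Hox list had 3 of 10, with hth 7, Ubx 3 and lab 1. The trachea list had 3 of 14, with sas, bnl and dysf at 1 each, glia had 1 of 4 (pnt), and fat and lipid metabolism 1 of 6 (bmm).

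Neuronal lists and the RNA-binding list lay below the background in density. By share of genes that held a member, axon guidance (24.2%) and RNA-binding genes (36.4%) lay above the 20.4% of all protein-coding genes. Ion channels and receptors (8.70%) and synapse genes (0%) lay below it. The 66 axon guidance genes had 16 hosts and 27 summits (14.1 per Mb, 9.31 to 20.6), led by Ten-m with 4, NetA with 3, and Dscam1 and fra with 2 each. Ion channels and receptors had 4 of 46 and 5.05 per Mb (1.64 to 11.8), in Ca-beta, Sh, nAChRalpha3 and Shal. The 22 synapse genes had 0 summits in 0.433 Mb, which allows up to 8.53 per Mb. The RNA-binding list had 8 of 22 and 11.9 per Mb, with pum 4, how 2, ps 2 and shep 1. The 11 segmentation genes had 0, with too little sequence to place them below the background.

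Density moved with the size of the host, and gene lists differ in that size. Genes with at most 5000 bp of far intronic sequence held 47.9 summits per Mb, those with up to 20000 bp 47.3, those with up to 50000 bp 35.0, and those with more than 50000 bp 12.04. The share of these genes that held a member rose in the same order, at 5.90%, 28.1%, 40.1% and 42.2%. The 5 genes with the most, Myo81F, Pzl, lovit, CG17684 and DIP-lambda, together held 3.80 Mb and 0 summits. These sizes and densities include the arm ends that hold no optimal peak, and the part of those ends was not tested. The part of gene size in the densities and host counts of the lists was not tested.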

How the data were processed

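ChIP-seq peaks of 2 biological replicates were analysed. According to the deposited text files, the authors called peaks against a control alignment for each replicate and for the pool, and derived the optimal list from these with an irreproducible discovery rate threshold. That threshold is not given in the sources used here, nor are the caller and the aligner. The authors deposited a signal per peak on a scale that is particular to each list, and comparisons of signal stay within the optimal list. They deposited −log10 q, which was not used. The summit was deposited as an offset in bp. Coordinates are dm6, per the labels. Read depth is unknown, so intervals cover only the counting of peaks.

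Each replicate and pooled list held 30000 peaks. Summits were placed with Ensembl release 115 (BDGP 6.54) on 6 arms, in the order start site (within 500 bp), exon, intron, intergenic. The host was the protein-coding gene of shortest span over the summit, otherwise the shortest other gene. Nearest start sites include those of unnamed non-coding RNAs. Motifs were sought on both strands, 23 consensus sequences and 9 direct-repeat spacings. Tests were exact McNemar and Fisher's exact tests, two-sided, with Benjamini-Hochberg adjustment and a threshold of 0.05. The motif test was tested on simulated data. Python 3.11.15, numpy 2.4.6, scipy 1.17.1, pandas 2.3.3 and matplotlib 3.10.9 were used.

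The members, lists and tests were chosen with earlier results of these data known. Of 678 list symbols 674 matched, 6 of them through a synonym that several genes share. The result of 1 list is not reported here. Genes were named by rule. The rule took the 15 members of highest optimal-list signal that a peak of each full replicate list overlapped. It also took the hosts and introns with the most members, the 5 farthest summits and up to 4 hosts per list. The members with AGGTCA or DR1 of highest signal outside 2R were named as well. Alternatives changed the distance limit, window, flank, annotation, overlap rule and replicate. Other genes were named after their values were seen.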

Additional observations from a re-analysis of the deposited data

Results flagged for a closer look

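The difference between summit and flank was set against that of the other 4940 optimal peaks for 23 consensus sequences, by Fisher's exact test on the peaks with the sequence in 1 of the 2 windows. The GATA site, the BEAF sequence and CACGTG stood apart, each with an adjusted p of 0.0338. The GATA site was 0.64 percentage points less frequent at far intronic summits than at their flanks, and 5.79 points more frequent at other summits. The BEAF sequence CGATA was 1.79 points less frequent at far intronic summits (82 against 96 flanks) and 3.87 points more frequent at other summits. CACGTG was 2.04 points more frequent at far intronic summits and 0.16 points more frequent at others. With the flank toward lower coordinates the adjusted p was 0.787 for GATA, 0.402 for BEAF and 0.406 for CACGTG, so none of the 3 differences held with both flanks. AGGTCA had an adjusted p of 1 with either flank. These tests were chosen after seeing the data.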

How the results depend on the processing

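Of 125 alternatives to results with a test, 80 kept the direction and the side of the threshold. AGGTCA at far intronic summits kept its call in all 12, and the lower signal against start sites in all 8. The number of members was 1374 beyond 2500 bp and 326 beyond 10000 bp, and the density then 35.6 and 18.8 per Mb. The density was 24.6 with 1 summit per listed region, 24.05 without the upper summit of each close pair, 36.0 within the stretches spanned by optimal summits, 30.2 with protein-coding genes only and 31.1 with pseudogenes and transposable elements kept. DR1 exceeded its flanks by 1.84 points beyond 10000 bp, 2.29 in the higher-signal part and 0.894 within 25 bp, all without passing the threshold. GATA, at −0.64 points, turned to 2.33 beyond 2500 bp, 2.87 in the higher-signal part, 3.45 with the other flank, 1.15 within 25 bp and 0.27 to 1.14 in single replicates, never passing it. AGGTCA against start sites stayed higher but missed the threshold at 3.54 points beyond 10000 bp, 4.54 in the higher-signal part, 1.84 within 25 bp, 3.40 within 100 bp, 1.94 with pseudogenes and transposable elements kept, and 2.17 to 2.58 in single replicates. AGGTCA against nearer introns turned to −1.08 with pseudogenes and transposable elements kept and −0.49 to −0.30 in single replicates. Signal against nearer introns passed the threshold at −4.82 points beyond 2500 bp, −5.42 with 1 summit per region, −5.43 without upper summits, and −5.25 from replicate 1 alone against −3.23 from replicate 3. Replicate agreement against start sites missed it at −2.70 beyond 2500 bp, −3.91 beyond 10000 bp, −3.61 with 1 summit per region, −3.58 without close-pair partners, −0.22 when 50% of each region had to overlap and −0.20 when summits had to lie within 100 bp; the latter gave 0.91 against nearer introns. The cause was not tested, other than that several sets hold fewer peaks. CACGTG lost its call in 7 of 12 alternatives and the CTCF core in 8 of 12. No paired analysis was possible because both replicates belong to 1 group.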
